A study of Mus musculus with 24 samples.

Results

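Genes of cholesterol and fatty acid synthesis were followed in the pituitary gland of mice that lack Cga and of their wild-type littermates. The set had 29 genes chosen by symbol, 21 of a sterol branch and 8 of a fatty acid branch, and took in every array probe annotated to those symbols. The array carried 44 such probes, for 26 of the 29 genes. Of these, 24 genes (17 sterol, 7 fatty acid) had a probe detected on at least 6 arrays and were tested among 12027 genes. Acat2, Hmgcs1 and Fdft1 had no annotated probe and were not analysed here, and the only probes of Mvk and Acaca were detected on 0 of 24 arrays.

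The product of Cga is the common alpha chain of thyrotropin and the gonadotropins, and the study's title concerns thyrotrope adenoma, a tumour of the cells that make thyrotropin. RNA from whole pituitaries was hybridised to 24 Illumina bead arrays, 1 for each sample, in 4 groups of 6: mutant females, wild-type females, mutant males and wild-type males. Mutants were Cga-deficient. Every mouse was 8 weeks old and had the strain Mixed C57Bl6j 129S2SvPas; the design text calls the wild types littermates, but the labels name no allele or construct and tie no sample to a litter. The samples are taken as 1 animal each, and p-values measure the spread between them. Pituitary was measured in bulk, so that fewer cells of a type and less RNA per cell cannot be told apart.

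Cells make cholesterol from acetyl-CoA through the mevalonate pathway, squalene and lanosterol, and fatty acids through malonyl-CoA, with elongases and desaturases finishing the chains. Both routes are driven by SREBP transcription factors, which SCAP carries from the endoplasmic reticulum to the Golgi for cleavage when sterols are low and which INSIG proteins hold back when sterols are high. SREBP-2, from Srebf2, is best known for the sterol genes, and SREBP-1c, from Srebf1, for the fatty acid genes; in liver, thyroid hormone and sex steroids are known to act on several of these genes.

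Promoter sequence was looked at first, because the branches are known to share these factors. RefSeq windows of GRCm38.p6 were at hand for 22 of the 29 genes, and the 250 bases before each annotated start were searched on both strands. The nuclear factor Y box CCAAT was found in 15 of 17 sterol genes and in 1 of 5 fatty acid genes (Fasn), against 37.5% of all 27025 genes with a window. The Sp1 box GGGCGG was found in 16 of 17 sterol genes and in 2 of 5 fatty acid genes (Acly and Fads2), against 35.4% of all genes. The E-box CACGTG was found in 4 of 17 sterol genes and 0 of 5 fatty acid genes, against 6.86% of all genes. The sterol response element TCACNCCAC was found in 1 member, Hmgcs1, against 1.22% of all genes. Each motif was searched on its own, so that overlapping matches could count for both, and genes with several annotated starts counted once where any window held the motif. A match is a description of these letters and not a bound site. The following windows are shown for 3 genes on which the results turn: Mvd, the sterol gene with the largest rise in mutant females; Dhcr7, the sterol gene with the largest fall by the brightest probe of each gene; and Fads2, a desaturase lower in mutants of both sexes. Capitals mark CCAAT or GGGCGG on either strand (ATTGG and CCGCCC on the reverse).
Mvd, chr8:122443423-122443672, minus strand: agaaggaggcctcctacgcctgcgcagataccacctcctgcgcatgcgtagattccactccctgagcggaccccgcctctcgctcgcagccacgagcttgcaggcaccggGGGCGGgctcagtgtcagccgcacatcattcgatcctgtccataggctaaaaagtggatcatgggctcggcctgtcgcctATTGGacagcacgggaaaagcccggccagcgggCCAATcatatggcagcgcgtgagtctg
Dhcr7, chr7:143822917-143823166, plus strand: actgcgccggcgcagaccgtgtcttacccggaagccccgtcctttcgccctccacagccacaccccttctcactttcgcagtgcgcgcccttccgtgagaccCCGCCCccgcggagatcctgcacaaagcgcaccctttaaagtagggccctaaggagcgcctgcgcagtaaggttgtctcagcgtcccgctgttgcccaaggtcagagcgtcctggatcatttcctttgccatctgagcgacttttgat
Dhcr7, chr7:143829964-143830213, plus strand: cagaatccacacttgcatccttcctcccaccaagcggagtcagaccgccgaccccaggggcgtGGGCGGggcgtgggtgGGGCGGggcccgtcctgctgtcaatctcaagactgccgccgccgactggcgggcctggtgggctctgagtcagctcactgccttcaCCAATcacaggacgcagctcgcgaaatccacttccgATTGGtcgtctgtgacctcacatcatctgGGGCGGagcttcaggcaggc
Fads2, chr19:10101504-10101753, minus strand: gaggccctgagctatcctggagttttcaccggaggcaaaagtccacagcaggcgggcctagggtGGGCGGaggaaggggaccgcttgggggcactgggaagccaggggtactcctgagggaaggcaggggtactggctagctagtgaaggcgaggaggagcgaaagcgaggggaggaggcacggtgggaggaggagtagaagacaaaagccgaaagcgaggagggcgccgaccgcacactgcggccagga

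Levels below are normalized log2 intensities of 1 probe for each gene, the brightest of its kept probes, given as the median with the lowest and highest of 6 arrays. Levels of different probes are not compared with each other. Differences are log2 ± standard error from limma, and called means an adjusted p under 0.05, by the Benjamini-Hochberg method across the 12027 genes. The targeted gene followed the labels: Cga was 4.28-fold lower in mutant than in wild-type females and 5.14-fold lower in mutant than in wild-type males, with no overlap. Detected probes made up 48.9% ± 1.4 of all probes in mutant females, 45.1% ± 0.89 in wild-type females, 48.2% ± 0.86 in mutant males and 41.7% ± 1.2 in wild-type males (SD, n = 6 each). The raw background, as the SD over undetected probes, spread by 8.18 to 10 intensity units on mutant female, 8.66 to 9.85 on wild-type female, 9.04 to 10.4 on mutant male and 12 to 17.4 on wild-type male arrays. The wild-type males had the widest spread, without overlap, so that comparisons with them and array background cannot be told apart in full. For members, the value or adjusted p with that spread as a covariate is given where it ends or adds a call. For other genes such values are not given.

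In mutant against wild-type females, the branches differed in their counts. Of 17 sterol genes, 6 rose (Srebf1, Pmvk, Mvd, Fdps, Sqle and Stard4), 2 fell (Scap and Dhcr7) and 9 were not called. The 8 sterol calls became 4 without wild-type female 6, and 5 without mutant female 2, mutant female 6 or wild-type female 4. Of 7 fatty acid genes, 3 fell (Scd1, Fads1 and Fads2) and 0 rose; 0 rose also at an unadjusted p under 0.05 by limma. The median difference was 0.08 over the sterol genes and -0.24 over the fatty acid genes, against -0.03 over all genes tested. Across all genes 48.3% were called, 22.8% higher and 25.5% lower, so that neither branch's count of calls stood far from the background. The 11 members called made up 45.8% of the 24 tested.

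In mutant against wild-type males, the sterol branch had 5 falls (Srebf2, Scap, Lss, Tm7sf2 and Dhcr7) and 0 rises, with 0 rises also at an unadjusted p under 0.05 by limma. The fatty acid branch had 5 falls (Acly, Elovl6, Scd1, Fads1 and Fads2), 1 call in the other direction (Fasn) and 1 gene not called (Scd2). Its median difference was -0.55, with -0.00 in the sterol branch and -0.01 over all genes. Across all genes 51.5% were called, 25% higher and 26.5% lower. The 5 sterol calls were 29.4% of that branch, and the 6 fatty acid calls 85.7% of 7 genes. The fatty acid share counts Fasn, whose probe was kept mainly through mutant arrays (6 mutant male and 0 wild-type male arrays detected). With background spread as a covariate, the male calls of Srebf2, Scap, Lss, Tm7sf2, Fasn, Elovl6 and Fads2 were lost. Calls in both sexes were made for 5 members (Scap, Dhcr7, Scd1, Fads1 and Fads2), and all of these were lower in mutants. The share of all genes called in both sexes is not given here, so this count is a list and not a result about the set.

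**Figure D1:**
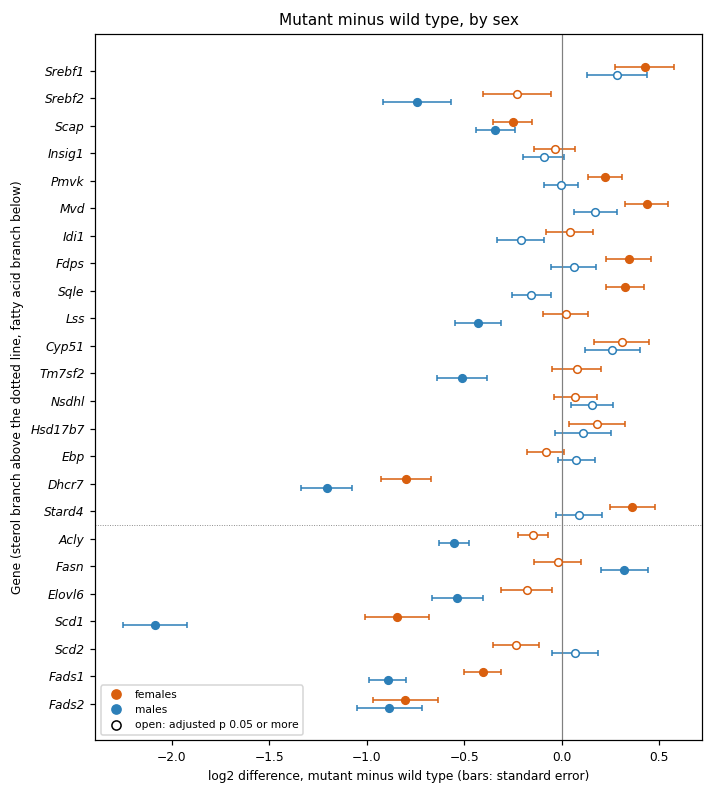
Difference between mutants and wild types for the 24 members tested, females above males in each row. The x axis is the log2 difference, mutant minus wild type, with bars of 1 standard error, and filled points are called. Scd1 in males lies farthest to the left, at -2.09, and the rises in females reach no further than 0.44 (Mvd).

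The regulators moved unequally. Srebf1, the gene of the SREBP that favours fatty acid synthesis, had levels of 7.81 (7.56 to 8.29) in mutant females and 7.36 (7.16 to 7.85) in wild-type females. It had 7.87 (7.54 to 8.08) in mutant males and 7.67 (7.06 to 7.87) in wild-type males. The groups overlapped in both sexes. It was called 1.34-fold higher in mutant females (0.42 ± 0.15, adjusted p = 0.024), and the difference in males was 0.28 ± 0.15 (adjusted p = 0.12). The female call was lost, with an adjusted p of up to 0.073, when mutant female 2 or 6 or wild-type female 1, 4 or 6 was left out.

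Srebf2, the gene of the SREBP that favours sterol synthesis, had 7.11 (6.57 to 7.70) in mutant females and 7.37 (7.07 to 7.45) in wild-type females. It had 6.97 (6.60 to 7.84) in mutant males and 7.77 (7.56 to 8.05) in wild-type males. Mutant males were spread widely and reached into the wild-type range. It was 1.67-fold lower in mutant males (-0.74 ± 0.17, adjusted p = 8e-04), and the female difference was -0.23 ± 0.17 (adjusted p = 0.29). With background spread as a covariate the male difference was -0.71 with an adjusted p of 0.19. A second Srebf2 probe gave -0.26 ± 0.094 in males (adjusted p = 0.025 over 23133 probes) and 0.17 ± 0.094 in females (adjusted p = 0.15).

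Scap, whose product escorts the SREBPs, had 8.72 (8.49 to 8.92) in mutant females and 8.91 (8.82 to 9.13) in wild-type females. It had 8.87 (8.77 to 8.91) in mutant males and 9.23 (8.88 to 9.56) in wild-type males. The ranges met at their edges. It was called lower in both sexes, 1.19-fold in females (-0.25 ± 0.10, adjusted p = 0.041) and 1.27-fold in males (-0.34 ± 0.10, adjusted p = 0.0063). Neither call was firm. The female call was lost without mutant female 1, 2 or 6 or wild-type female 3, 4 or 6 (adjusted p up to 0.11). With background spread as a covariate the differences became -0.20 in females (adjusted p = 0.074) and 0.09 in males (adjusted p = 0.79). A second Scap probe gave 0.08 ± 0.16 in females (adjusted p = 0.70) and -0.93 ± 0.16 in males (adjusted p = 2.6e-05), so the probes disagree on the females. Insig1, the sterol-sensing brake on SCAP, differed by -0.04 ± 0.10 in females and -0.09 ± 0.10 in males and was not called by any of its 3 kept probes.

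In the mevalonate part, calls were made in females and all were rises. Pmvk, phosphomevalonate kinase, had 8.46 (8.20 to 8.55) in mutant females and 8.17 (7.99 to 8.49) in wild-type females. Its level in mutant males was 8.40 (8.15 to 8.58), against 8.37 (8.28 to 8.51) in wild-type males. The female difference was small, 1.17-fold (0.22 ± 0.089, adjusted p = 0.043), and was lost without mutant female 1, 2, 5 or 6 or wild-type female 3, 4, 5 or 6 (adjusted p up to 0.11) or under 75th percentile scaling (0.21, adjusted p = 0.069).

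Mvd, which decarboxylates mevalonate pyrophosphate to isopentenyl pyrophosphate, had 7.32 (7.04 to 7.50) in mutant females and 6.93 (6.64 to 7.02) in wild-type females. These ranges did not overlap, as was the case for 23.6% of all genes. Among males it had 7.03 (6.93 to 7.44) in mutants, against 6.94 (6.71 to 7.15) in wild types. Mvd was 1.35-fold higher in mutant females (0.44 ± 0.11, adjusted p = 0.002), a call made in every fit with 1 array left out. The male difference was 0.17 ± 0.11 (adjusted p = 0.20).

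Fdps, which makes farnesyl pyrophosphate, had 10.34 (10.11 to 10.54) in mutant females and 10.05 (9.61 to 10.21) in wild-type females. Mutant male arrays gave 10.26 (9.84 to 10.41), against 10.13 (9.86 to 10.42) in wild-type males. The female ranges overlapped slightly and the male ranges almost wholly. It was 1.27-fold higher in mutant females (0.34 ± 0.12, adjusted p = 0.017), a call lost without wild-type female 6 (adjusted p = 0.056). A second Fdps probe also rose in females (0.52 ± 0.18, adjusted p = 0.022). Idi1, isopentenyl diphosphate isomerase, was dim: it was detected on 3 mutant and 1 wild-type female arrays and on 3 mutant and 1 wild-type male arrays, and no fold is given. Idi1 differed by 0.04 ± 0.12 in females (adjusted p = 0.80) and by -0.21 ± 0.12 in males (adjusted p = 0.15) and was not called. With background spread as a covariate the male difference passed the threshold (-0.67, adjusted p = 0.048). The male means, 5.11 in mutants and 5.32 in wild types, lay under the lowest detected signals, 5.22 and 5.63 on average.

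From squalene to cholesterol, the genes split by sex and by gene. Sqle, squalene epoxidase, a rate-limiting oxygenation step, had 10.74 (10.51 to 10.89) in mutant females and 10.37 (10.20 to 10.68) in wild-type females. In mutant males it had 10.67 (10.50 to 10.93), against 10.83 (10.48 to 11.12) in wild-type males. Wild-type females were the low group. Sqle was 1.25-fold higher in mutant females (0.32 ± 0.10, adjusted p = 0.009), and the male difference was -0.16 ± 0.10 (adjusted p = 0.19). Sqle was called lower in mutant males with background spread as a covariate (-0.65, adjusted p = 0.012). A second Sqle probe gave 0.30 ± 0.12 in females (adjusted p = 0.046) and 0.24 ± 0.12 in males (adjusted p = 0.11).

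Lss, lanosterol synthase, had 7.85 (7.40 to 8.14) in mutant females and 7.74 (7.54 to 8.20) in wild-type females. Its level in mutant males was 7.67 (7.41 to 7.91), against 8.09 (7.96 to 8.34) in wild-type males. The male ranges did not overlap, as was the case for 30.7% of all genes. The male difference was -0.43 ± 0.12, 1.35-fold lower (adjusted p = 0.0032), and -0.29 with an adjusted p of 0.45 when background spread was a covariate. In females it was 0.02 ± 0.12 (adjusted p = 0.90). A dimmer Lss probe, detected on 22 arrays, fell in both sexes, with differences of -0.9985 ± 0.10 in females (adjusted p = 1.7e-08) and -1.60 ± 0.10 in males (adjusted p = 2.1e-12). The direction of Lss in females thus rests on the probe. Which part of the transcript each probe reads was not analysed here.

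Tm7sf2, a sterol C14 reductase, had 6.05 (5.75 to 6.28) in mutant females and 5.96 (5.81 to 6.11) in wild-type females. Among males it had 5.86 (5.47 to 6.43) in mutants, against 6.38 (6.22 to 6.63) in wild types. It was 1.43-fold lower in mutant males (-0.51 ± 0.13, adjusted p = 0.0015) and not called in females (0.08 ± 0.13, adjusted p = 0.65). The male value with background spread as a covariate was -0.42, with an adjusted p of 0.30.

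Dhcr7, 7-dehydrocholesterol reductase, the last step to cholesterol in one route, fell most among the sterol genes by the brightest probe of each, while the dimmer Lss probe fell more in both sexes. It had 6.47 (6.08 to 6.90) in mutant females and 7.24 (7.08 to 7.56) in wild-type females. Mutant male arrays gave 6.36 (6.12 to 6.52), against 7.58 (7.27 to 7.82) in wild-type males. Neither pair of ranges overlapped. The fall was 1.74-fold in females (-0.80 ± 0.13, adjusted p = 1.2e-05) and 2.31-fold in males (-1.21 ± 0.13, adjusted p = 1.7e-08). It was called in every fit with 1 array left out and under each alternative processing in which it was measured, with an adjusted p of 0.0021 in males when background spread was a covariate. On the deposited, non-normalized scale, Dhcr7 had a median intensity of 176 in mutant females, 208 in wild-type females, 165 in mutant males and 272 in wild-type males. Of the Dhcr7 windows, the second one printed holds both CCAAT and GGGCGG, as does that of Mvd, which moved the other way in females; the first holds GGGCGG alone, and another Dhcr7 window, not printed, holds neither.

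The other genes of this stretch were not called in either genotype comparison. Cyp51, lanosterol demethylase, differed by 0.31 ± 0.14 in females (adjusted p = 0.076) and by 0.26 ± 0.14 in males (adjusted p = 0.13). Nsdhl and Hsd17b7, which act in removal of the C4 methyl groups, differed by 0.07 to 0.18 in the 4 comparisons. One of 4 kept Nsdhl probes was higher in mutant males (0.31 ± 0.11, adjusted p = 0.022), while the other 3 were not called. Ebp, the sterol isomerase also called emopamil-binding protein, differed by -0.08 ± 0.095 in females and 0.07 ± 0.095 in males.

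Stard4, a carrier of cholesterol between membranes, had 8.39 (8.24 to 8.68) in mutant females and 7.98 (7.84 to 8.51) in wild-type females. In mutant males it had 8.46 (8.16 to 8.70), against 8.38 (8.19 to 8.52) in wild-type males. Wild-type females were again the low group. It was 1.28-fold higher in mutant females (0.36 ± 0.12, adjusted p = 0.012), with a male difference of 0.09 ± 0.12 (adjusted p = 0.54).

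**Figure D2:**
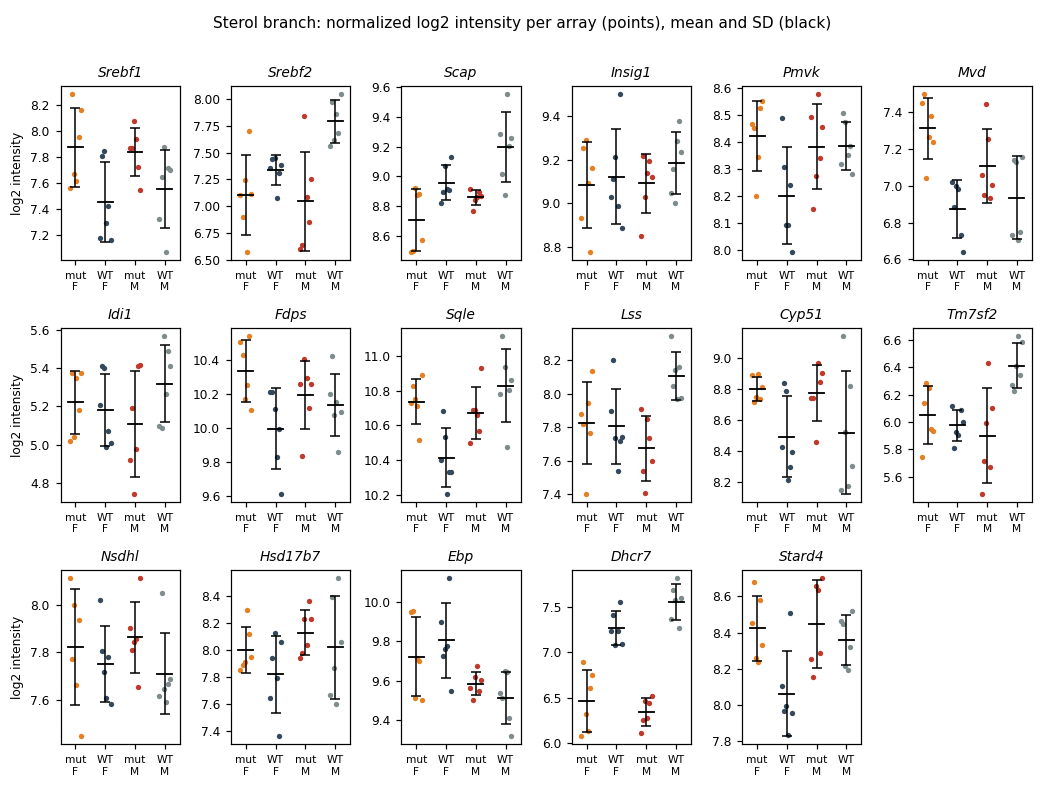
Normalized log2 intensity of the sterol branch members on each array, with a panel for each gene. Points are arrays (6 for each group), black lines the mean and SD; mut is mutant, WT wild type, F female, M male. The mutant and wild-type points of Dhcr7 are apart in both sexes, while those of Insig1, Nsdhl and Ebp overlap.

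In the fatty acid branch, 3 desaturases were called in both sexes, and the genes of synthesis and elongation in males. Acly, ATP citrate lyase, which supplies cytosolic acetyl-CoA to both branches, had 11.81 (11.74 to 11.96) in mutant females and 11.99 (11.89 to 12.10) in wild-type females. Its level in mutant males was 11.84 (11.56 to 11.87), against 12.37 (12.09 to 12.51) in wild-type males. Wild-type males were high and did not overlap mutant males. Acly was 1.47-fold lower in mutant males (-0.55 ± 0.076, adjusted p = 1.2e-06). The female difference was -0.15 ± 0.076 (adjusted p = 0.12).

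Fasn, fatty acid synthase, was near the detection limit. It was detected on 5 of 6 mutant female, 2 of 6 wild-type female, 6 of 6 mutant male and 0 of 6 wild-type male arrays. Its levels were 5.24 (5.15 to 5.44) in mutant females and 5.38 (4.76 to 5.63) in wild-type females. In mutant males they were 5.31 (5.24 to 5.83), against 5.06 (5.03 to 5.16) in wild-type males. The male difference passed the test (0.32 ± 0.12, adjusted p = 0.027), but the mutant mean of 5.40 lay under the lowest detected signal of wild-type male arrays, 5.63 on average, so no fold is given. The call was lost without mutant male 1 (adjusted p = 0.091) and under 75th percentile scaling (0.09, adjusted p = 0.61), among others, and the value was 0.24 (adjusted p = 0.55) with background spread as a covariate.

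Elovl6, which elongates palmitate to stearate, had 9.35 (9.04 to 9.79) in mutant females and 9.50 (9.21 to 9.84) in wild-type females. Among males it had 9.11 (8.72 to 9.45) in mutants, against 9.72 (9.41 to 9.87) in wild types. The male ranges overlapped only at 9.41 to 9.45. Elovl6 was 1.45-fold lower in mutant males (-0.54 ± 0.13, adjusted p = 0.0013) and differed by -0.18 ± 0.13 in females (adjusted p = 0.27). The male difference with background spread as a covariate was -0.73, with an adjusted p of 0.066.

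Scd1, the stearoyl-CoA desaturase that makes oleate, had the largest difference of all members. It had 7.07 (6.65 to 7.89) in mutant females and 8.07 (7.76 to 8.28) in wild-type females. Mutant male arrays gave 7.49 (7.35 to 7.81), against 9.63 (9.30 to 10.05) in wild-type males. On the deposited, non-normalized scale the median intensity was 226 (183 to 312) in mutant females, 312 (222 to 346) in wild-type females, 276 (234 to 341) in mutant males and 828 (694 to 1430) in wild-type males. Wild-type males stood above every array of the other 3 groups. The fall in mutants was 1.80-fold in females (-0.84 ± 0.17, adjusted p = 0.00014) and 4.24-fold in males (-2.09 ± 0.17, adjusted p = 7.5e-11). With background spread as a covariate the differences were -0.78 in females (adjusted p = 0.00024) and -1.46 in males (adjusted p = 0.0021).

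Scd2, a second stearoyl-CoA desaturase, differed by -0.24 ± 0.12 in females (adjusted p = 0.10) and 0.07 ± 0.12 in males (adjusted p = 0.64). Its 95% interval in males, -0.17 to 0.31, does not reach the range found for Scd1, -2.43 to -1.75.

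Fads1, the delta-5 desaturase of polyunsaturated fatty acid synthesis, had 12.35 (12.20 to 12.62) in mutant females and 12.79 (12.45 to 12.98) in wild-type females. In mutant males it had 12.54 (12.36 to 12.63), against 13.38 (13.31 to 13.59) in wild-type males. The wild-type males were again above all other arrays. Fads1 was 1.33-fold lower in mutant females (-0.41 ± 0.094, adjusted p = 0.00088) and 1.86-fold lower in mutant males (-0.89 ± 0.094, adjusted p = 1.3e-08). A dim Fads1 probe, detected on 12 arrays, gave 0.00 ± 0.14 in females (adjusted p = 0.98) and -0.59 ± 0.14 in males (adjusted p = 0.00073), so that the female call was lost when the probes were averaged (-0.20, adjusted p = 0.071).

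Fads2, the delta-6 desaturase that precedes Fads1 in the same route, had 7.55 (6.72 to 8.00) in mutant females and 8.18 (8.04 to 8.65) in wild-type females. Its level in mutant males was 7.78 (7.29 to 7.93), against 8.61 (8.29 to 8.82) in wild-type males. Neither pair of ranges overlapped. The fall was of like size in both sexes, 1.74-fold in females (-0.80 ± 0.17, adjusted p = 0.00031) and 1.85-fold in males (-0.88 ± 0.17, adjusted p = 8.9e-05). A second Fads2 probe fell by 0.59 ± 0.12 in females (adjusted p = 0.00018) and by 0.83 ± 0.12 in males (adjusted p = 1.5e-06). With background spread as a covariate the male difference was -0.88 with an adjusted p of 0.088, while the female call was kept (adjusted p = 0.00054).

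**Figure D3:**
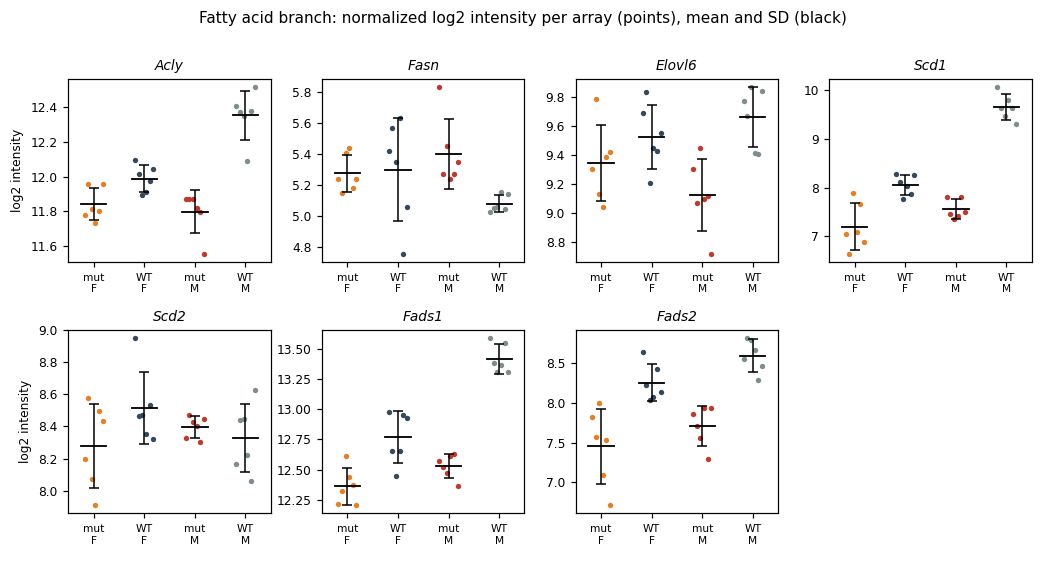
Normalized log2 intensity of the fatty acid branch members on each array, drawn as for the sterol branch. Points are arrays (6 for each group), black lines the mean and SD. Wild-type males lie above the other 3 groups for Scd1 and Fads1, and Fads2 is lower in mutants of both sexes.

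The size of the genotype difference was then compared between the sexes, as the female minus the male difference. Of 24 members, 20 had a value above 0, that is, a female difference less negative or more positive than the male one. Over all genes 49.3% had a value above 0. Members share the same arrays, and the count of signs was not tested. Of the 24 members, 5 were called, all positive: Sqle and Tm7sf2 in the sterol branch and Acly, Scd1 and Fads1 in the fatty acid branch. The background was 13.6% of all genes called, 7.25% positive and 6.36% negative. Medians were 0.25 in the sterol and 0.35 in the fatty acid branch, against -0.00 over all genes. No member was called negative, and 0 were negative at an unadjusted p under 0.05 by limma.

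Scd1 had the largest such value, 1.24 ± 0.23 (adjusted p = 0.00085), followed by Tm7sf2 at 0.59 ± 0.18 (adjusted p = 0.029). Fads1 followed at 0.49 ± 0.13 (adjusted p = 0.016), Sqle at 0.48 ± 0.14 (adjusted p = 0.023) and Acly at 0.41 ± 0.11 (adjusted p = 0.014). For Fads2 the value was 0.08 ± 0.24 (adjusted p = 0.85), with a 95% interval from -0.41 to 0.57. Under 75th percentile scaling the calls of Sqle (0.36, adjusted p = 0.071), Acly (0.19, adjusted p = 0.21) and Fads1 (0.26, adjusted p = 0.18) were lost. The call of Sqle was kept with background spread as a covariate (0.92, adjusted p = 0.0097), and those of Scd1 (0.69, adjusted p = 0.28), Tm7sf2 (0.51, adjusted p = 0.34), Fads1 (0.29, adjusted p = 0.47) and Acly (0.53, adjusted p = 0.093) were lost. The call of Tm7sf2 was lost without mutant male 1, 2 or 5 (adjusted p up to 0.054). The second Sqle probe gave 0.06 ± 0.17 (adjusted p = 0.84). The second Fads1 probe gave 0.60 ± 0.19 (adjusted p = 0.036), and the second Scap probe, unlike the first, 1.01 ± 0.22 (adjusted p = 0.0037). Second probes of Lss (0.60 ± 0.15, adjusted p = 0.008) and Srebf2 (0.43 ± 0.13, adjusted p = 0.031) were also called, unlike the first ones.

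Sex was next compared within each genotype. Among wild types, female minus male, Ebp was higher in females and 5 members were lower (Sqle, Tm7sf2, Acly, Scd1 and Fads1), with 20 of 24 below 0. Over all genes 50.5% were above 0. Members share the same arrays, and the count of signs was not tested. The background was 27.3% of all genes called, 12.5% higher and 14.8% lower in females. Of all those calls 45.8% were higher in females, and 56.3% under 75th percentile scaling. This comparison shares its 12 wild-type arrays with the difference between the sexes above, so the members' values stand side by side and neither supports the other. Scd1 was 3.02-fold lower in wild-type females than in wild-type males (-1.60 ± 0.17, adjusted p = 8.4e-08), and Fads1 1.57-fold (-0.65 ± 0.094, adjusted p = 1.1e-05), both with no overlap, as for 11.1% of all genes. Tm7sf2 was 1.35-fold lower (-0.44 ± 0.13, adjusted p = 0.012), also with no overlap. Sqle was 1.33-fold lower (-0.42 ± 0.10, adjusted p = 0.0029) and Acly 1.28-fold (-0.36 ± 0.076, adjusted p = 0.00091). The second Sqle probe gave -0.06 ± 0.12 (adjusted p = 0.75), so that call rests on the probe. Second probes of Scap (-0.93 ± 0.16, adjusted p = 0.00011), Lss (-0.64 ± 0.10, adjusted p = 5.9e-05) and Fads2 (-0.38 ± 0.12, adjusted p = 0.016) were lower, unlike the first ones. Further probes of Insig1, Fdps and Nsdhl were not called.

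Ebp had 9.71 (9.50 to 9.96) in mutant females and 9.58 (9.50 to 9.68) in mutant males, beside 9.77 (9.55 to 10.12) in wild-type females; wild-type males had 9.52 (9.31 to 9.65). It was 1.23-fold higher in wild-type females than in wild-type males (0.30 ± 0.095, adjusted p = 0.023), a call lost without wild-type female 5 or wild-type male 6 (adjusted p up to 0.069). Srebf2 did not overlap between wild-type females and males but missed the threshold (-0.45 ± 0.17, adjusted p = 0.052), while its second probe passed it (-0.40 ± 0.094, adjusted p = 0.0023). With background spread as a covariate, the wild-type sex calls of Tm7sf2, Ebp, Acly, Scd1 and Fads1 were lost, with adjusted p from 0.10 to 0.56.

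Among mutants, 0 of 24 members were called between females and males, and 1, Scd1, had an unadjusted p under 0.05 by limma (-0.36 ± 0.17, adjusted p = 0.79). Over all genes 0.0665% were called, 8 of 12027, with 0.0333% higher and 0.0333% lower in females. The median difference was 0.06 over the sterol branch and -0.13 over the fatty acid branch, and 0 members had groups that did not overlap (0.258% of all genes). The 95% interval for Scd1, -0.70 to -0.02, does not include the wild-type value of -1.60. Whether the wild-type and mutant values differ is what the difference between the sexes above tests.

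**Figure D4:**
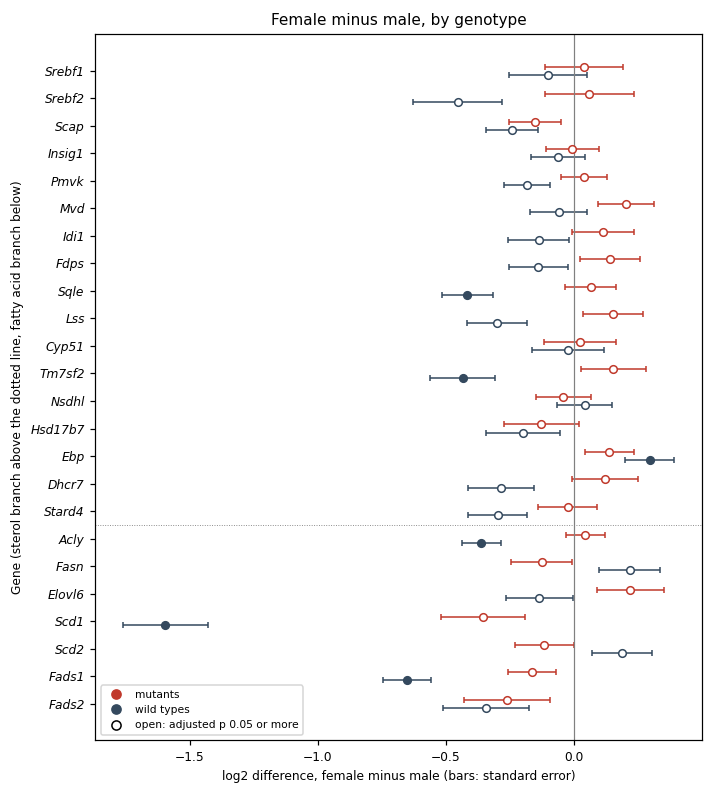
Female minus male difference for the 24 members, mutants above wild types in each row. The x axis is the log2 difference with bars of 1 standard error, and filled points are called. All mutant points are open and lie between -0.36 and 0.22, while the wild-type point of Scd1 lies at -1.60.

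How far the members moved together among animals of a group was described by correlating each gene's deviations from its group means over the 24 arrays. Within the sterol branch the median Pearson's r of 136 pairs was 0.14, and 61.8% were above 0. Within the fatty acid branch it was 0.04 over 21 pairs, and between the branches -0.02 over 119 pairs. Sterol members with all other genes tested had a median r of -0.01, with 49.2% above 0 and a range of -0.85 to 0.88. Fatty acid members with all other genes had -0.00, 49.5% and -0.83 to 0.87. The highest r were those of Nsdhl with Fads2 (0.81), Acly with Elovl6 (0.74), Cyp51 with Hsd17b7 (0.64) and Sqle with Cyp51 (0.64). The lowest were those of Stard4 with Fasn (-0.56) and Scap with Sqle (-0.55). The ranges with other genes come from far more pairs, so these extremes cannot be judged by them. An r over 0.5 was found for 6.62% of pairs within the sterol branch and 14.3% within the fatty acid branch. Between the branches it was found for 3.36%. With all other genes the share was 2.67% for sterol and 3.44% for fatty acid members. Scd1 and Fads1 had an r of 0.59, and Scd1 had a median r of -0.13 with the sterol genes, among which Scap was the closest (0.52). Points share an array and its RNA, and no test was made.

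**Figure D5:**
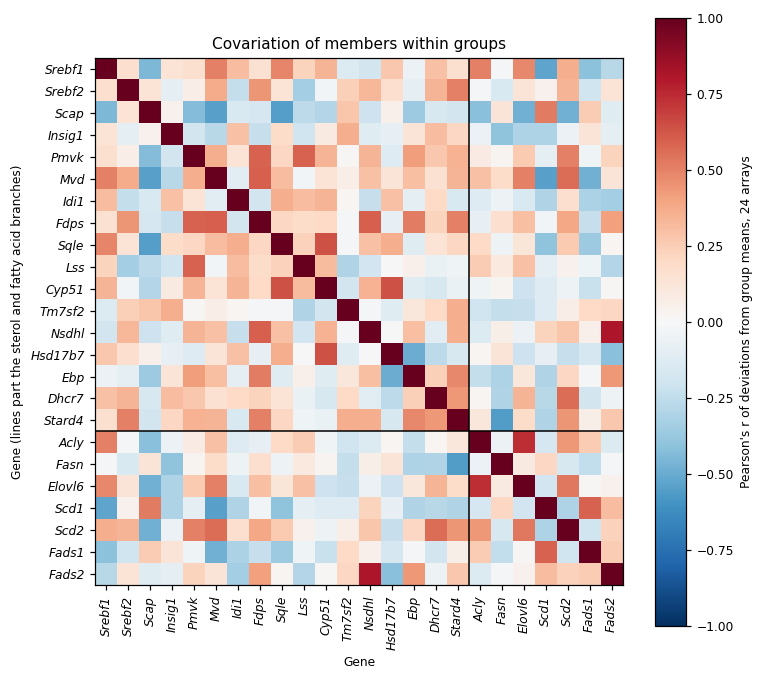
Pearson's r between members of deviations from group means over 24 arrays, as a colour from -1 to 1, with genes of the sterol branch before those of the fatty acid branch and lines between them. Most pairs are pale; the deep squares off the diagonal include Nsdhl with Fads2 at 0.81 and Acly with Elovl6 at 0.74.

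Other genes of these pathways were counted in lists chosen by function. Their values with background spread as a covariate are not given here. Over all genes that covariate brought the calls from 51.5% to 18.7% in males and from 13.6% to 1.24% for the difference between the sexes. The other fatty acid genes had calls in both directions in each sex. The fatty acid members had 3 falls and 0 rises in mutant females, where 25.5% of all genes were called lower and 22.8% higher. In mutant males those members had 5 falls and 1 rise, that of Fasn near the detection limit. There 26.5% of all genes were called lower and 25% higher. The list counts were not tested against those of all genes. Of 17 measured of 20 other fatty acid genes, 6 rose and 6 fell in mutant females, and 5 rose and 8 fell in mutant males. Acss2, Me1, Tecr, Hsd17b12 and Acsl4 rose in both sexes, and Pnpla3 rose in females and fell in males. The fatty acid genes with levels or folds below were picked by smallest adjusted p and all fell, so they do not stand for the list. Elovl5, an elongase of polyunsaturated fatty acids that acts between Fads2 and Fads1, had 10.94 (10.88 to 11.28) in mutant females and 12.00 (11.83 to 12.27) in wild-type females. Among males it had 10.95 (10.87 to 11.11) in mutants, against 12.27 (12.07 to 12.43) in wild types. It was 2.01-fold lower in mutant females (adjusted p = 9e-10) and 2.46-fold lower in mutant males (adjusted p = 6.5e-12), with no overlap in either sex.

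Acacb, an acetyl-CoA carboxylase whose malonyl-CoA is known to restrain fatty acid entry into mitochondria, was 1.78-fold lower in mutant females (adjusted p = 6.3e-05) and 2.84-fold lower in mutant males (adjusted p = 6.3e-09). Mid1ip1, a partner of acetyl-CoA carboxylase, was 2.22-fold lower in mutant females (adjusted p = 8.3e-10) and 1.48-fold lower in mutant males (adjusted p = 5.7e-05). Its fall was larger in females, against the run of the members: the female minus male difference was -0.59 ± 0.15 (adjusted p = 0.0084). Whether that call is kept with background spread as a covariate is not given here. Lpin1, a phosphatidate phosphatase, was 1.63-fold lower in mutant females (adjusted p = 0.00021) and 2.55-fold lower in mutant males (adjusted p = 1.4e-08).

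Of 7 measured of 8 genes of fatty acid breakdown, 1 rose and 2 fell in mutant females, and 1 rose and 3 fell in mutant males. Cpt2, of the mitochondrial carnitine shuttle, was 1.69-fold lower in mutant females (adjusted p = 2.8e-07) and 1.73-fold lower in mutant males (adjusted p = 1.2e-07). Of 3 measured of 6 other sterol synthesis genes, 2 rose in mutant females (Msmo1 and Acat1). None was called in males by limma, where the unadjusted p were 0.19 to 0.75. Acat1 was near background, detected on 4 mutant and 0 wild-type female arrays and on 2 mutant and 0 wild-type male arrays. Its probe was thus kept through mutant arrays alone, and no fold is given. Of 10 measured of 13 genes of sterol uptake and its regulation, 4 rose and 1 fell in mutant females. In mutant males 3 rose and 1 fell. These rises included Mylip in both sexes and Scarb1 in females, both near background. Mylip was detected on 5 mutant and 0 wild-type female arrays and on 4 mutant and 0 wild-type male arrays. Scarb1 was detected on 5 mutant and 0 wild-type female arrays. Of 3 measured of 5 efflux genes, 2 rose and 1 fell in mutant females, and 1 rose and 1 fell in mutant males. Apoe, which carries cholesterol between cells, was 1.87-fold higher in mutant females (adjusted p = 7.4e-07) and 2.42-fold higher in mutant males (adjusted p = 1.8e-09).

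Markers of other cell types moved with genotype beside these results. The summed intensity of 4 measured of 5 thyrotrope markers was 8810 to 14200 in mutant females against 1730 to 2590 in wild-type females; in mutant males it was 8200 to 10600, against 2560 to 4140 in wild-type males. All 4 rose in both sexes. That of 5 measured of 7 macrophage markers, which also rose in both sexes, was 2170 to 3140 in mutant females against 1130 to 1710 in wild-type females; in mutant males it was 2480 to 4280, against 1030 to 1580 in wild-type males; Ptprc was detected on no array. That of 4 measured of 7 oligodendrocyte and Schwann cell markers was 845 to 977 in mutant females against 1190 to 1580 in wild-type females; in mutant males it was 914 to 987, against 1020 to 1210 in wild-type males. Mbp fell in mutant females and Pmp22 and Cnp in mutant males, and Mog was detected on no array. The sum of 4 endothelial markers was 828 to 997 in mutant females against 568 to 763 in wild-type females; in mutant males it was 787 to 1010, against 664 to 840 in wild-type males. Pecam1 and Tek rose in both sexes and Cdh5 in females, while Kdr was called lower in both sexes but was detected on at most 3 of 6 arrays of any group. The sum of 2 measured of 4 hepatocyte markers was 398 to 840 in mutant females against 159 to 252 in wild-type females; in mutant males it was 396 to 649, against 179 to 273 in wild-type males. Of these, Ttr, also known from choroid plexus, was 3.63-fold higher in mutant females and 2.49-fold higher in mutant males, and Apoa1, detected on 2 to 5 of 6 arrays in each group, was called lower in females. The part of these cells in the members' differences was not tested. Of the adipocyte markers, Adipoq, Plin1, Fabp4 and Retn were detected on 0 arrays in every group, as were Alb and Cyp7a1 of hepatocytes. Lep, the 1 adipocyte marker measured of 6, was near background, detected on 2 mutant and 3 wild-type female arrays and on 3 mutant and 0 wild-type male arrays. It was called lower in mutant females and not in males, and no fold is given.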

How the data were processed

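Per the file headers, the deposited main table gives a non-normalized intensity for 45281 probes and 24 arrays, with a detection p-value and a bead count (median 42 to 44 beads per array) for each deposited intensity. It was made with GenomeStudio 2011.1, per the submitters' processing notes; 24 columns of bead errors were not used. A second table of the authors' processed intensity served as an alternative, and how it was made is not given in the sources.

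Background correction and quantile normalization used neqc (offset 16) of limma 3.58.1 in R 4.3.3. Probes with a detection p under 0.05 on at least 6 arrays were kept (23133), named from the platform annotation, and each gene took its brightest kept probe (12027 genes). A linear model (lmFit, eBayes) with 4 group means gave 5 comparisons, with Benjamini-Hochberg adjustment over all genes; second probes were tested in a fit over 23133 probes. The number of arrays limits the precision. In simulated data with 12027 genes, 100 were changed by 0.5 log2 and 100 by 1 log2. There the male comparison recovered 54% of changes of 0.5 log2 and 97% of changes of 1 log2. In the data 51.5% of all genes were called in males, so these shares do not give the power of the calls here. Members and lists were chosen with earlier results of these data known. Per-group values are given for members called in either genotype comparison, in their difference or between wild-type sexes; other pathway genes are named where they had the 6 smallest adjusted p. Alternatives were another scaling, background, filter, probe choice and sample set, the authors' table, and background spread as a covariate. Arrays were also split by the lower quartile of raw intensity, and each array was left out. Correlations of each array with the rest of its group were 0.988 to 0.995, and 0 pairs of arrays were identical.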

Additional observations from a re-analysis of the deposited data

Results flagged for a closer look

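In 4 of 96 groups of 6 arrays (4.17%; chance gives about 1 in 20), 1 array lay far from the other 5. Nsdhl was 8.05 on wild-type male 2, against 7.59 to 7.69 on the others. Acly was 11.56 on mutant male 6, against 11.79 to 11.87. Fasn was 5.83 on mutant male 1, against 5.24 to 5.45, and its male call was lost without that array. Scd2 was 8.95 on wild-type female 1, against 8.32 to 8.53.

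The genotype difference was more positive, or less negative, in females than in males for 5 members by the test of the difference itself (limma, females minus males): Scd1 by 1.24 (adjusted p = 0.00085), Tm7sf2 by 0.59 (adjusted p = 0.029), Fads1 by 0.49 (adjusted p = 0.016), Sqle by 0.48 (adjusted p = 0.023) and Acly by 0.41 (adjusted p = 0.014).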

How the results depend on the processing

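Of 33 calls of members, 32 were kept without background correction and 32 in the authors' table, 33 with detection on at least 1 array, 27 under 75th percentile scaling, 29 with a gene's probes averaged, and 16 with background spread as a covariate. With that covariate the calls were 3 sterol and 3 fatty acid members in males (5 and 6 in the report). Of these sterol calls only Dhcr7 was kept, and Sqle and Idi1, the latter from a dim probe, were added, both lower. For the difference between the sexes the calls were 1 and 0 (2 and 3 in the report), and between wild-type sexes 1 and 0 (3 and 3). Over all genes, calls fell to 18.7% in males, 1.24% for the difference and 1.8% between wild-type sexes. Under 75th percentile scaling the difference had 1 sterol and 1 fatty acid call. With probes averaged, 5 sterol members were called between wild-type sexes. Scap in males turned to 0.089 under the covariate, and Lss in females to -0.49 with probes averaged; the cause was not tested.

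The arrays of each group were also split by the lower quartile of raw intensity, chosen after seeing the data. This level of background is not the background spread used as a covariate. Wild-type male 1, with the widest spread (17.4), fell in the lower set. The split kept 15 calls (lower background) and 20 (higher), with 3 arrays a group. In every group the arrays of lower background were numbers 1 to 3 and those of higher background numbers 4 to 6. The split thus follows the order of the sample titles, and the labels do not say what that order stands for. Arrays of lower background gave 3 sterol calls in males, 2 in females, 0 for the difference and 0 between wild-type sexes, and 0 fatty acid calls for the difference; arrays of higher background gave 0 sterol and 1 fatty acid calls for the difference and 0 sterol calls between wild-type sexes. That split as a block kept all 33. It does not adjust for the background spread.

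With 1 array left out, 26 of 33 calls were kept in all 24 fits, and no sign changed. Sterol calls ranged from 4 to 9 in females (4 without wild-type female 6; 8 in the report), 5 to 6 in males, 1 to 3 for the difference (1 without mutant male 2 or 5) and 2 to 4 between wild-type sexes. Fatty acid calls ranged from 3 to 4 in females, 5 to 6 in males, 3 to 4 for the difference and 3 to 4 between wild-type sexes. Dim probes (Fasn, Idi1) limit what these arrays show. A block of slides was not run, since the headers name none. No paired analysis was possible because the labels share no replicate numbers between groups.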
